A study of Rattus norvegicus with 8 samples.

Results

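Motile cilia beat by means of an axoneme, a ring of doublet microtubules around a central pair. The transcription factor Foxj1 switches the motile cilium programme on. The genes described here are Foxj1 and members of families with many axonemal parts and assembly factors, not all of them axonemal. They were chosen by symbol: Foxj1 and every rat gene of the families Dnah (dynein heavy chains), Dnai (dynein intermediate chains and related proteins), Dnaaf (dynein axonemal assembly factors), Cfap (cilia and flagella associated proteins), Rsph (radial spoke components), Tekt (tektins) and Drc (nexin-dynein regulatory complex). Of 94 such genes in the RefSeq rat gene table, 57 had at least 1 probe on the array, with 72 probes in all among 45598. Probes were used only if the scanner software flagged them as well above background on the 2 arrays of some group. This kept 64 of the 72 probes, for 54 genes, among 29780 kept probes. The other 37 genes had no matched probe and were not analysed here, among them Dnah5, Dnah9, Dnah11, Rsph4a and Cfap43. Of 13 Dnah genes only Dnah1 was matched, so the dynein heavy chains, the motor subunits of the arms, rest on 1 gene.

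In the lung, motile cilia are carried by the multiciliated cells of the airways, where they move mucus out, and not by the alveolar epithelium. Dynein arms on the doublets generate the sliding, and the intermediate chains hold and dock them. The arms are put together in the cytoplasm by the assembly factors before transport into the cilium. Radial spokes and the nexin-dynein regulatory complex control the beat, and tektins and many Cfap proteins lie in or on the doublet wall. Several of these proteins are shared with the sperm tail.

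Lung RNA of male rats was hybridised to 8 one-colour Agilent arrays, 2 in each of 4 groups. The groups were lungs of rats that breathed cigarette smoke over 12 weeks and then received extracellular vesicles of human umbilical cord mesenchymal stem cells at week 13 (EV lungs), lungs exposed in the same way and given the human umbilical cord mesenchymal stem cells themselves (MSC lungs), lungs exposed to smoke without treatment (smoke lungs), and lungs of rats kept in normal air (naive lungs). Both treatments went into the trachea, and RNA came from 30 mg of lung. The labels do not say that the 2 arrays of a group came from separate animals, so p-values measure only the spread between these samples, which may be technical. All arrays shared 1 slide and 1 scan, each group filled 1 slide column, and group and column cannot be told apart. A level is the log2 of the probe's processed signal over the 75th percentile of the array's spots, and it is not comparable between probes. That percentile was 762 and 483 on the EV arrays, 246 and 256 on the MSC arrays, 3240 and 2680 on the smoke arrays and 568 and 362 on the naive arrays. Before scaling, the median signal of the 64 probes was 145 and 91.8 on the EV arrays, 30.6 and 86 on the MSC arrays, 364 and 244 on the smoke arrays and 99 and 93.6 on the naive arrays. The direction of every smoke difference below is therefore relative to the rest of the array. The alveolar marker Sftpc, the surfactant protein of alveolar type 2 cells, had levels of 9.13 and 9.52 in EV lungs, 9.83 and 8.97 in MSC lungs, 7.41 and 7.52 in smoke lungs and 9.49 and 9.88 in naive lungs. The marker was thus measured on every array, as in lung.

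Promoters are shown for the 3 genes with the widest difference between the 2 MSC arrays that had a single promoter sequence in RefSeq (Dnai2, Cfap95 and Dnaaf6), and for Rsph6a, which differed most between MSC and smoke lungs. Each is the 250 bases before the annotated start in GRCr8, and capitals mark matches on either strand to GTTGCC, letters found in X-boxes, the sites of RFX factors that act with Foxj1. The Dnai2 stretch is chr10:100258772-100259021 on the plus strand, that of Cfap95 is chr1:230669480-230669729 on the minus strand, that of Dnaaf6 is chrX:108512752-108513001 on the plus strand and that of Rsph6a is chr1:87828594-87828843 on the plus strand.
Dnai2: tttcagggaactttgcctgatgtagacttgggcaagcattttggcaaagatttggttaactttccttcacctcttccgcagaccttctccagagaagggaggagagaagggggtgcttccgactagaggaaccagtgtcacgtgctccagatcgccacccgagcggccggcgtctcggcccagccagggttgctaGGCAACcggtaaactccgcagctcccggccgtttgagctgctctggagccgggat
Cfap95: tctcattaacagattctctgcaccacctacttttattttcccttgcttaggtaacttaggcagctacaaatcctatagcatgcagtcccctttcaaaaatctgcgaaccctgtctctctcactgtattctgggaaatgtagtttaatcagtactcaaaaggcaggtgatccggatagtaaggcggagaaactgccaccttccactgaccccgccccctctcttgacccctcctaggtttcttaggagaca
Dnaaf6: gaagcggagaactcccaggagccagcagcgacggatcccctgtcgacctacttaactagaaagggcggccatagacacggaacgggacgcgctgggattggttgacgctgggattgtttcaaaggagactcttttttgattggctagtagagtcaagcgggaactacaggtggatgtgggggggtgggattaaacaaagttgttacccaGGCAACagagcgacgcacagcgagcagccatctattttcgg
Rsph6a: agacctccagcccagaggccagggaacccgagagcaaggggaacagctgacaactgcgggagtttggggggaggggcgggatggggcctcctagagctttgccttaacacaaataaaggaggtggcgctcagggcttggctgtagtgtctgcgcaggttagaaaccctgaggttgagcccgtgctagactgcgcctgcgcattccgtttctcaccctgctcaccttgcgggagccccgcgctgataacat
Of the 57 genes, 46 had a promoter in the RefSeq table, with 50 sequences of 300 bases, 250 before and 50 after the start. GTTGCC was present on either strand in 32% of those, against 12.2% of all 33469 promoters of that length. The forkhead letters GTAAACA, which neither contain GTTGCC nor lie within it, were present in 6% of the cilium promoters, against 3.78% of all. These were 2 of 11 letter patterns counted, and a match is a description of the sequence, not a site. GTTGCC was in the Dnai2 and Dnaaf6 windows and not in those of Cfap95 and Rsph6a.

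The widest differences among the cilium genes lay between arrays of 1 group. On MSC array 1 the 64 probes had a median level of -3.01, against -1.58 on MSC array 2, and 58 of the 64 were lower on array 1. The median difference of array 1 minus array 2 was -1.17 for the cilium probes and 0.13 for all kept probes. In MSC lungs 37 cilium probes (57.8%) were lower on array 1 by more than 1 log2 unit, against 11.5% of all kept probes. The naive arrays differed in the same direction, with 59 of 64 probes lower on array 1, a median difference of -0.74 for the cilium probes and -0.02 for all, and 32.8% lower by more than 1, against 7.87% of all. In EV lungs the median difference was -0.07 over 63 probes, and none was lower on array 1 by more than 1, against 5.75% of all kept probes. In smoke lungs the median was 0.22, and 3.12% were lower on array 1 by more than 1, against 5.75% of all.

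**Figure D1:**
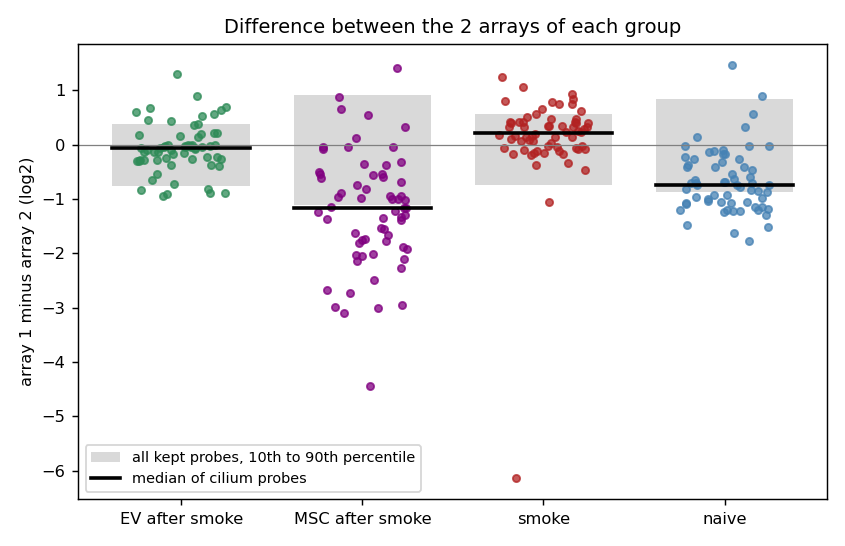
Difference between the 2 arrays of each group (array 1 minus array 2, log2) for the 64 kept axonemal and motile cilium probes (63 in EV lungs). Points are probes, black lines are their medians and grey bands span the 10th to the 90th percentile of all kept probes. The MSC median is -1.17 and the naive median -0.74, while the EV and smoke medians are -0.07 and 0.22.

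Genes of the Dnaaf, Dnai, Cfap, Drc and Tekt families were among those that differed most between the MSC arrays. Dnaaf1, an assembly factor for the dynein arms, had levels of -6.83 and -2.38 on MSC arrays 1 and 2, a difference of -4.45. Its levels were -3.55 and -3.92 in EV lungs, -4.03 and -4.46 in smoke lungs and -4.39 and -3.47 in naive lungs, so MSC array 1 was the lowest of the 8 and MSC array 2 the highest. Dnai2, an outer dynein arm intermediate chain, was at -4.72 and -1.62 in MSC lungs, against -2.46 and -2.39 in EV lungs, -2.94 and -3.27 in smoke lungs and -3.45 and -2.25 in naive lungs. The MSC arrays again held both ends of the range. Dnaaf6, another dynein assembly factor, was at -7.08 and -4.09 in MSC lungs, and its other 6 levels lay between -4.27 and -2.69. Cfap95 and Cfap97d2 had MSC differences of -3.01 and -2.96, Drc12 of -2.49 and Tekt1 of -2.15. Dnaaf1, Dnai2, Dnaaf6, Cfap95, Cfap97d2 and Tekt1 were well above background on only 1 of the 2 MSC arrays. The sizes of their differences are therefore uncertain. After normexp background correction the median MSC difference was -0.40 over the cilium probes, against 0.08 over all kept probes. Dnah1, an inner arm heavy chain, had a difference of -2.28 at 1 probe and of 1.40 at the other kept probe. Probes that were higher on MSC array 1 included Dnaaf10 at 0.87, Cfap97 at 0.65 and Rsph6a at 0.32.

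The probes that were low on array 1 of the MSC group tended to be low on array 1 of the naive group as well. Of the 64 probes, 53 were lower on array 1 of both groups, against 22.7% of all kept probes. Across the 64 probes the MSC and naive differences had a Spearman correlation of 0.51, against 0.11 across all kept probes, as a description of 4 arrays whose points share those arrays. Array 1 of every group lay in slide row 1 and array 2 in row 2, so array number and row cannot be told apart. Between EV and naive lungs 44 of 63 probes were lower on array 1 of both (37.1% of all kept probes), with a Spearman correlation of 0.22, and between smoke and naive lungs 20 of 64 were (31.1% of all), with a correlation of -0.08. Among probes well above background on all 8 arrays, 41 of which were cilium probes, the MSC median was still -1.0 for cilium probes and 0.21 for all such probes. There, 21 of the 41 cilium probes were lower on MSC array 1 by more than 1.

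Other ciliated cell genes moved with this difference, and so did markers of other lung cells. Of 35 other motile cilium genes measured (docking, central pair and tubulin-associated genes), 33 were lower on MSC array 1, with a median difference of -0.98. The other 2, Tppp3 among them (6.34 and 6.08 on MSC arrays 1 and 2), were higher on it. On naive array 1, 29 were lower, with a median of -0.83. The airway secretory cell list, which holds Scgb1a1, the secretoglobin of club cells, was lower on MSC array 1 at 8 of 8 genes with a median of -1.87, and at 8 of 8 on naive array 1 with a median of -1.56. Its summed signal, relative to each array's 75th percentile, was 150 and 163 in EV lungs, 92.5 and 291 in MSC lungs, 94.6 and 91.6 in smoke lungs and 137 and 294 in naive lungs. The alveolar lists went the other way on the MSC arrays. All 8 alveolar type 2 genes were higher on MSC array 1, with a median of 1.09, and all 7 alveolar type 1 genes were, with a median of 1.58. The summed alveolar type 1 signal was 320 and 316 in EV lungs, 396 and 126 in MSC lungs, 214 and 240 in smoke lungs and 347 and 342 in naive lungs. On the naive arrays the alveolar type 1 median difference was 0.00 and the alveolar type 2 median 0.36. Airway basal cell markers had a median of -1.54 on the MSC arrays, with 4 of 6 lower on array 1, and of 0.06 on the naive arrays. Cartilage and smooth muscle markers were lower on MSC array 1 at 5 of 9 genes, with a median of -0.85. Intraflagellar transport genes, which serve all cilia, were lower on it at 18 of the 22 genes with a value on both arrays, with a median of -0.40. The part of airway content in the cilium differences was not tested. In whole lung RNA, fewer ciliated cells and less RNA per ciliated cell cannot be told apart.

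**Figure D2:**
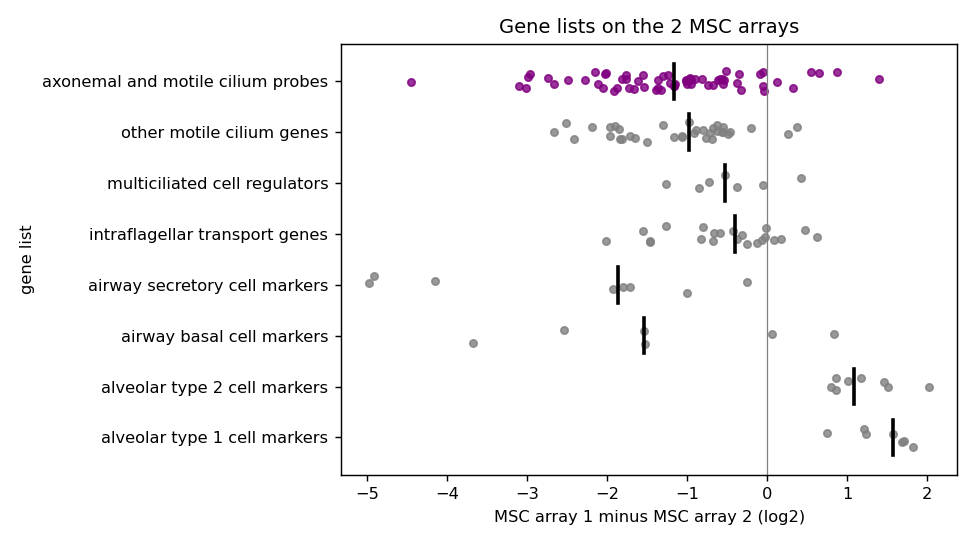
Difference between the 2 MSC arrays (array 1 minus array 2, log2) for the axonemal and motile cilium probes and for 7 marker lists. Points are probes or genes and black bars are medians. Cilium genes and airway secretory markers lie mostly below 0, with medians of -1.17 and -1.87, and alveolar type 1 and type 2 markers lie above 0, with medians of 1.58 and 1.09.

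Between smoke and naive lungs, 19 cilium probes fell and 4 rose after smoke at an adjusted p under 0.05 (limma, Benjamini-Hochberg over 29780 probes). These were 29.7% and 6.25% of the 64, against 33.7% and 12.8% of all kept probes, so the shares were no higher than the background. The median smoke difference was -0.67 for the cilium probes and -0.56 for all. The filter kept 9 of the 64 probes only through the smoke arrays, where they are bright (1 each of Cfap20dc, Cfap418, Cfap77, Dnaaf5, Dnai3, Tekt1 and Tekt5 and 2 of Dnaaf4), so a rise of these after smoke, or a fall in treated lungs, is favoured by the filter. Of the 4 rises 3 were among these 9 probes. Among probes well above background on all 8 arrays, 41 of which were cilium probes, 0 cilium probes rose, against 13.6% of all such probes. There the median smoke difference was -1.17 for the cilium probes and -0.66 for all. By family, 4 of 6 Rsph probes, 2 of 4 Drc probes, both Foxj1 probes, 4 of 13 Dnaaf probes, 5 of 26 Cfap probes, 1 of 6 Dnai probes and 1 of 5 Tekt probes fell. The arrays of the 2 groups did not overlap at 33 lower and 15 higher cilium probes (background 53.4% and 25.4%). These directions hold for scaling to the 75th percentile and turned for 8 of 15 named results when the arrays were scaled to the E1A spike-in probes. With that scaling 52 cilium probes were called higher and 0 lower after smoke (83.4% and 0.47% of all kept probes), and the median over all kept probes was 2.40.

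The transcription factor Foxj1 was among the genes that fell. At its brighter probe it had levels of 2.69 and 2.48 in EV lungs, 1.82 and 2.80 in MSC lungs, 0.12 and 0.46 in smoke lungs and 1.63 and 2.85 in naive lungs. Both smoke arrays lay below the other 6. The smoke minus naive difference was -1.95 ± 0.49 (SE, limma adjusted p = 0.015), and it missed the threshold without naive array 2 (-1.34, adjusted p = 0.0747) and without smoke array 1 (-1.78, adjusted p = 0.094), in fits where the single array left takes its spread from the other groups. It also missed it after cyclic loess (-1.40, adjusted p = 0.0731), and with spike-in scaling it was 1.01. EV lungs were higher than smoke lungs by 2.30 (limma adjusted p = 0.0109) and MSC lungs by 2.02 (limma adjusted p = 0.00894). The EV call was lost without smoke array 1 or either EV array, and the MSC call without smoke array 1 or after cyclic loess. Foxj1's dimmer probe differed by -1.03, 0.86 and 1.56 in the same 3 comparisons, and the EV difference was not called. Of the other regulators of multiciliated cells on the list used, 7 genes were measured, and 3 fell after smoke (42.9%, against 33.7% of all kept probes). Among them were Rfx2 (-1.31) and Tp73 (-1.85), an activator of the multiciliated programme. With 7 genes these shares are not told apart from those of all kept probes. In EV lungs against smoke lungs 3 of the 7 rose (42.9%, against 28.4% of all kept probes) and 0 fell (10.5% of all), with Rfx2 and Tp73 higher by 1.58 and 1.77. In MSC lungs against smoke lungs 3 rose and 2 fell (42.9% and 28.6%, against 41.9% and 16.9% of all kept probes), with a median of -0.31. The falls were Gmnc and Deup1, which act in multiciliated cell formation (limma adjusted p = 0.0159 and 0.0175), and both were kept only through the smoke arrays and were not well above background on either MSC array.

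The dynein arm genes divided by gene and, for Dnai4, by probe. Dnai4, an inner arm associated intermediate chain, had levels of -1.50 and -1.34 in EV lungs, -1.20 and -0.18 in MSC lungs, -4.14 and -4.02 in smoke lungs and -1.95 and -1.20 in naive lungs at its brighter probe. Smoke lungs were apart from the other 6 arrays. The smoke minus naive difference was -2.50 ± 0.41 (SE, limma adjusted p = 0.00388). The dimmer Dnai4 probe differed by -0.17 with no call, the widest disagreement among the 10 genes with more than 1 kept probe. Dnai1, the other outer arm intermediate chain, had -4.20 and -4.72 in EV lungs, -5.35 and -3.43 in MSC lungs, -3.75 and -4.53 in smoke lungs and -5.75 and -4.13 in naive lungs. Its groups overlapped, and the smoke minus naive difference of 0.79 was not called (limma adjusted p = 0.395). Dnai2 differed by -0.25 between smoke and naive lungs (adjusted p = 0.835). The 2 kept Dnah1 probes differed by -1.60 and -1.88, and neither was called. At the second, the smoke arrays stood at -10.14 and -3.99, the widest gap between arrays among the cilium probes. Only 1 of these 2 smoke arrays was well above background there.

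The assembly factors went both ways. Dnaaf10, a cochaperone-associated assembly factor, had -0.11 and 0.03 in EV lungs, 1.18 and 0.31 in MSC lungs, -1.24 and -1.25 in smoke lungs and 0.36 and 0.96 in naive lungs. It fell after smoke by 1.91 on the log2 scale. Both kept Dnaaf3 probes fell too, at -1.66 and -1.22. For the first of them all spots of EV array 2 were outliers, and the fit used the single EV array. Dnaaf5 had -5.82 and -5.82 in EV lungs, -5.06 and -4.73 in MSC lungs, -4.41 and -4.88 in smoke lungs and -5.66 and -6.22 in naive lungs, and it rose after smoke by 1.30 (limma adjusted p = 0.0157). It was kept only through the smoke arrays, and 1 of the 2 naive arrays was well above background. Its call was lost without naive array 2 or smoke array 1, and the difference was -1.19 after normexp background correction. Dnaaf1 had a smoke minus naive difference of -0.32 with an SE of 1.20, and its MSC arrays differed by -4.45.

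Radial spoke genes gave the largest fall. Rsph6a, a spoke head paralogue known in mouse from sperm flagella, had levels of -2.32 and -1.78 in EV lungs, 0.04 and -0.28 in MSC lungs, -4.48 and -4.33 in smoke lungs and -1.47 and -1.35 in naive lungs. No 2 groups overlapped. The smoke minus naive difference was -3.00 ± 0.30 (SE, limma adjusted p = 0.0023), and leaving out any 1 array moved it between -3.07 and -2.92. With spike-in scaling it was -0.03 and not called. Rsph1, a spoke head protein of airway cilia, had 2.22 and 2.23 in EV lungs, 2.93 and 3.48 in MSC lungs, 0.61 and 0.47 in smoke lungs and 2.17 and 2.91 in naive lungs, with a smoke minus naive difference of -2.00 (limma adjusted p = 0.00451). Rsph10b fell by 1.94 on the log2 scale. Rsph9, another spoke head protein, had a difference of -0.61 and was not called.

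Germ cell transcripts differed in the same directions as Rsph6a. All 7 measured germ cell markers fell after smoke (100%, against 33.7% of all kept probes). Gapdhs and Dazl, 2 of the 7, were well above background on neither smoke array and on only 1 naive array. They were kept only through the EV and MSC arrays, so lower levels in smoke lungs than in treated lungs are favoured by the filter. The sizes of their falls are uncertain. The summed relative signal of the 7 markers was 1.34 and 1.98 in EV lungs, 6.12 and 5.38 in MSC lungs, 0.235 and 0.305 in smoke lungs and 1.45 and 1.99 in naive lungs. Cyct, the testis cytochrome c, had -1.79 and -0.46 in EV lungs, 1.06 and 1.00 in MSC lungs, -8.99 and -6.90 in smoke lungs and -1.88 and -1.63 in naive lungs. Only 1 of the 2 smoke arrays was well above background for Cyct, so the size of its fall is uncertain. The other 9 genes of that list of 16 were not measured at the filter. The part of these transcripts in the Rsph6a difference was not tested.

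In the nexin-dynein regulatory complex, Drc1, a core subunit, had -1.10 and -0.83 in EV lungs, -1.56 and -0.59 in MSC lungs, -2.32 and -2.45 in smoke lungs and -1.62 and -0.61 in naive lungs. The smoke arrays were the lowest, and the smoke minus naive difference was -1.27 ± 0.45 (SE, limma adjusted p = 0.0491). That call was lost under 10 alternatives, among them leaving out either smoke array, naive array 2 or either EV array. Drc7 fell by 1.71 on the log2 scale, and Drc3 and Drc12 differed by -0.89 and -1.01 with no call.

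The 4 probes that rose after smoke were those of Tekt3, Tekt5 and Dnaaf5 and 1 of Cfap418. The tektin Tekt5 had -7.37 and -8.03 in EV lungs, -7.29 and -7.25 in MSC lungs, -4.78 and -5.51 in smoke lungs and -6.12 and -7.02 in naive lungs, and Tekt3 had -5.06 and -5.50 in EV lungs, -4.99 and -4.31 in MSC lungs, -3.47 and -3.85 in smoke lungs and -4.52 and -5.99 in naive lungs. Both smoke arrays were the highest of the 8 at each. The smoke minus naive differences were 1.43 (limma adjusted p = 0.0288) for Tekt5 and 1.59 (limma adjusted p = 0.0362) for Tekt3. Tekt5 was kept only through the smoke arrays, and 1 naive array was well above background at each gene. Both calls were lost without naive array 2 or smoke array 1, and after normexp correction the differences were -1.18 and -0.56. Tekt1 differed by 1.00 with no call, and Tekt4 fell by 1.36 on the log2 scale. The smoke difference of a cilium probe was related to the probe's signal. Across the 64 probes the smoke minus naive difference and the mean level on the treated arrays had a Spearman correlation of -0.62, against -0.15 across all kept probes, as a description of probe signal. The 36 probes above the split at -2.82 had a median difference of -1.28, and the 28 below it had 0.44. The 9 probes kept only through the smoke arrays, for which the filter favours a rise, lie below the split. Treated lungs had small median differences from naive lungs (-0.03 for EV and 0.25 for MSC), so the 2 quantities are not independent. Levels are not comparable between probes either, and no conclusion is drawn from the correlation.

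Among the Cfap genes, Cfap97 and Cfap210, a protein inside the doublet microtubules, fell most. Cfap97 had -0.56 and -0.38 in EV lungs, 0.67 and 0.02 in MSC lungs, -3.46 and -2.41 in smoke lungs and -0.12 and -0.10 in naive lungs, a smoke minus naive difference of -2.82 (limma adjusted p = 0.00286). Cfap210 had -1.84 and -1.82 in EV lungs, -1.33 and -0.52 in MSC lungs, -3.90 and -3.75 in smoke lungs and -2.15 and -1.31 in naive lungs, a difference of -2.09 (limma adjusted p = 0.00573). At both genes the smoke arrays stood below the other 6. Cfap45, another protein of the doublet lumen, fell by 1.28, Cfap69 by 1.64 and Cfap276 by 1.87 at its brighter probe, on the log2 scale. One probe of Cfap418 rose. It was kept only through the smoke arrays and was not well above background on either naive array, so the rise is given as at least 1.69-fold (adjusted p = 0.0405). Its call was lost without any 1 of the naive or smoke arrays, and after normexp correction the difference was -1.05. The remaining 20 Cfap probes were not called, with Cfap119 and Cfap141 at 1.07 and 1.20 and Cfap206 at -1.40. Cfap52, of the doublet lumen, was at -0.04.

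**Figure D3:**
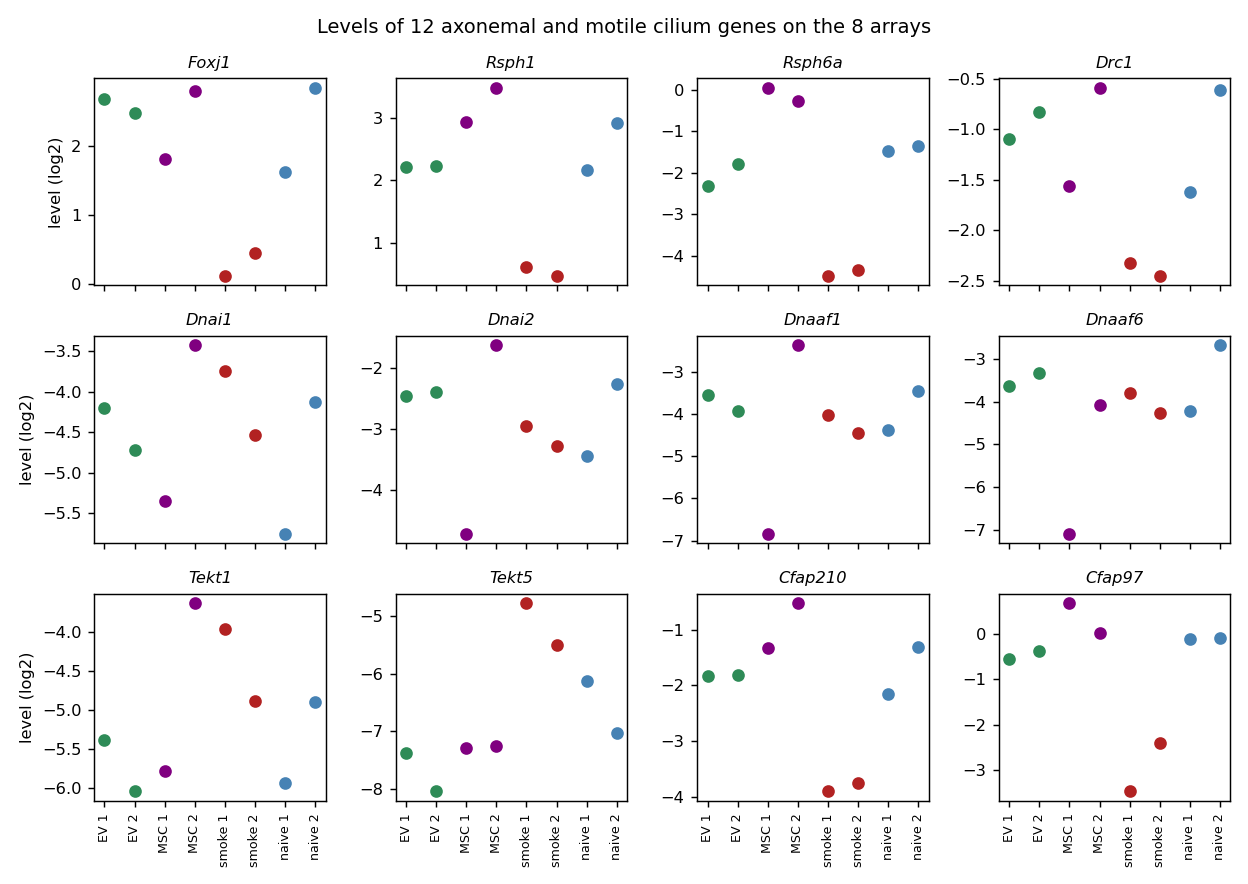
Level (log2 of processed signal over the array's 75th percentile) of 12 genes on each array, 2 per group, with a separate vertical scale for each gene. Foxj1, Rsph1, Rsph6a, Drc1, Cfap210 and Cfap97 are lowest on both smoke arrays, and Dnai2, Dnaaf1 and Dnaaf6 are lowest on MSC array 1.

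In EV lungs against smoke lungs, 16 cilium probes rose and 4 fell (25% and 6.25% of 64, against 28.4% and 10.5% of all kept probes). The median difference was 0.73, against 0.50 over all. Among probes well above background on all 8 arrays it was 0.99 for cilium probes, against 0.55 over all such probes. The smoke arrays are shared with the comparison of smoke and naive lungs, so the 2 are not independent. Arrays did not overlap at 35 higher and 16 lower probes (background 55.9% and 26.3%). The largest rises were Dnai4 at 2.65 ± 0.41, Cfap97 at 2.46 ± 0.41 and Rsph6a at 2.36 ± 0.30 (SE, limma adjusted p from 0.00414 to 0.00567). The Dnai4 value is that of its brighter probe, and the dimmer probe differed by 0.21 with no call. Cfap210 rose by 1.99, Rsph10b by 1.97, Drc7 by 1.73, Rsph1 by 1.68 and Drc1 by 1.42. The falls were Tekt5 (at least 1.94-fold lower, since it was not well above background on either EV array), 1 Cfap418 probe (at least 2.43-fold lower), Tekt3 by 1.62 and Dnaaf5 by 1.18 on the log2 scale. Of these 4 probes, 3 (not Tekt3) were kept only through the smoke arrays, and after normexp correction all 4 differences were above 0, at 0.75 for Tekt5, 0.65 for Cfap418, 0.15 for Tekt3 and 0.82 for Dnaaf5. Dnai1, Dnai2, Dnaaf1 and Tekt1 differed by -0.32, 0.67, 0.51 and -1.29 with no call. Leaving out any 1 array of this comparison lowered the number of calls, both among the cilium probes and over all kept probes. Without smoke array 1 the median difference was 0.80 for the cilium probes, against 0.41 over all kept probes. Without EV array 2 it was 0.67, against 0.43. With EV array 1 left out it was 0.70, against 0.57, and with smoke array 2 left out 0.54, against 0.57.

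In MSC lungs against smoke lungs, 24 cilium probes rose and 3 fell (37.5% and 4.69%, against 41.9% and 16.9% of all kept probes). The median difference was 0.66, against 0.68 over all. Among probes well above background on all 8 arrays it was 1.23 for cilium probes, against 0.73 over all such probes. Arrays did not overlap at 29 higher and 9 lower probes (background 53.7% and 26.5%). The largest rises were Rsph6a at 4.29 ± 0.30, Dnai4 at 3.39 ± 0.41, Cfap97 at 3.28 ± 0.41, Cfap210 at 2.90 ± 0.39 and Rsph1 at 2.67 ± 0.35 (SE, limma adjusted p from 0.000231 to 0.00079). The dimmer Dnai4 probe differed by 0.57 with no call. Cfap45 rose by 2.32, Rsph10b by 2.64, Drc7 by 1.95 and Tekt4 by 1.72. Tekt5, the brighter probe of Cfap418 and 1 probe of Dnaaf4 fell. The dimmer Cfap418 probe, which rose after smoke and fell in EV lungs, differed here by -0.32 with no call. For Tekt5 and Dnaaf4, which were not well above background on either MSC array, no fold is given. Both of these were kept only through the smoke arrays. After normexp correction they were higher in MSC lungs, by 1.79 for Tekt5 and 2.15 for Dnaaf4 (limma adjusted p = 1.71e-05 and 2.18e-06). The brighter Cfap418 probe was then at -0.30 with no call. Dnai1, Dnai2, Dnaaf1 and Tekt1 differed by -0.24, -0.07, -0.36 and -0.28 with no call. For several genes the MSC value depended on which array entered. With 1 MSC array left out, the other is assumed to vary like the arrays of the other groups, from which the spread then comes. Without MSC array 1 Dnaaf1 was higher than in smoke lungs by 1.86, and without MSC array 2 it was lower by 2.59 on the log2 scale. Dnaaf1 was well above background on only 1 of the 2 MSC arrays, so these sizes are uncertain. Without MSC array 2 the median difference was 0.06 for the cilium probes, against 0.74 over all kept probes. Without MSC array 1 it was 1.51, against 0.64. With smoke array 1 left out it was 0.76, against 0.61, and with smoke array 2 left out 0.49, against 0.74.

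**Figure D4:**
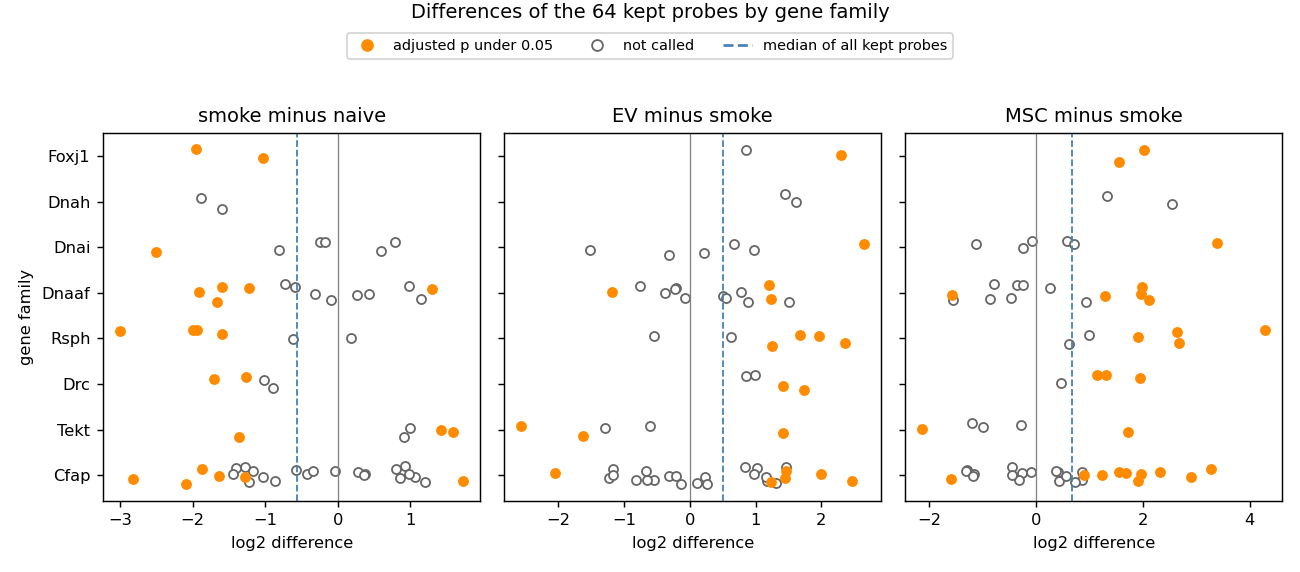
Log2 difference of the 64 kept probes by gene family for smoke minus naive lungs, EV minus smoke lungs and MSC minus smoke lungs. Filled points have an adjusted p under 0.05, open points do not, and dashed lines are the medians of all kept probes (-0.56, 0.50 and 0.68). With this scaling (E1A spike-in scaling turned 8 of 15, 8 of 15 and 6 of 14 named directions in the 3 panels), Rsph, Drc and Foxj1 probes lie mostly left of 0 in the first panel and right of 0 in the others, and Tekt probes lie on both sides.

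The other motile cilium genes were taken from a list of 54, of which 35 were measured. Their falls after smoke and rises in treated lungs were called at shares near those of all kept probes. In the other direction 0 were called, below those shares. After smoke 12 fell (34.3%, against 33.7% of all kept probes) and 0 rose (12.8% of all), with a median of -0.84. In EV lungs 11 rose against smoke lungs (31.4%, against 28.4%) and 0 fell (10.5% of all). In MSC lungs 14 rose (40%, against 41.9%) and 0 fell (16.9% of all). The median was 0.88 in each. Tppp3, a tubulin polymerisation promoting protein of ciliated cells, had 5.93 and 5.98 in EV lungs, 6.34 and 6.08 in MSC lungs, 5.05 and 5.23 in smoke lungs and 6.07 and 6.02 in naive lungs. It fell after smoke by 0.91 on the log2 scale. Of the 23 measured intraflagellar transport genes 7 fell and 1 rose after smoke (30.4% and 4.35%, against 33.7% and 12.8% of all kept probes). In the airway secretory list 1 of 8 genes fell after smoke, Aldh1a1 (-1.42), and Scgb1a1 differed by -1.05 with no call. In the airway basal list 3 of 6 fell, Krt5 (-1.80) among them, and 3 of 8 alveolar type 2 genes and 1 of 7 alveolar type 1 genes fell. The cartilage and smooth muscle list had 4 of 9 genes lower and 1 higher.

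No cilium probe passed the test between a treated group and naive lungs. In EV lungs against naive lungs 0 of 64 probes passed the limma test (0% of all kept probes passed), 1 had an unadjusted p under 0.05, and the median difference was -0.03. In MSC lungs against naive lungs 0 passed (0% of all), 7 had an unadjusted p under 0.05, and the median difference was 0.25, against 0.23 over all kept probes. Arrays did not overlap at 5 higher and 7 lower probes in EV lungs (background 15.3% and 21.9%) and at 10 higher and 3 lower probes in MSC lungs (background 34.2% and 14.9%). With the 2 naive arrays and the 2 MSC arrays differing among themselves as described, a count of 0 does not show that the groups are alike.

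In EV lungs against MSC lungs 1 cilium probe, Rsph6a, was lower (4.23% of all kept probes were called lower and 1.52% higher), and 6 had an unadjusted p under 0.05. The Rsph6a difference was -1.93 ± 0.30 (SE, limma adjusted p = 0.0397). Leaving out either EV, MSC or smoke array ended that call, with adjusted p between 0.0546 and 0.247, and so did a fit to these 2 groups alone (adjusted p = 0.0893). Arrays did not overlap at 4 higher and 24 lower probes (background 19.8% and 41.2%). The median difference was -0.36 for the cilium probes and -0.28 for all, and it was -0.52 relative to all without MSC array 1 and 0.57 without MSC array 2.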

How the data were processed

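Lung RNA (200 ng labelled) of 4 groups of 2 male rat samples was measured on 8 one-colour Agilent arrays of design 074036. Spot intensities were extracted, background-subtracted and flagged with Agilent Feature Extraction 10.7.3.1 per the file headers, and the deposited processed intensities were used. Each array has 62976 spots, 4259 of them controls, and 0 were saturated. Control spots and outlier spots were left out, spots of a probe were averaged (438 probe values had outlier spots only and stayed missing), and log2 values were taken relative to the array's 75th percentile. Between 48.09% and 71.33% of probes were well above background on an array, and 8 arrays limit the precision. Replicates correlated at 0.951 to 0.979, and no pair held identical values.

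Probes were named through their RefSeq accession in the RefSeq rat gene table of assembly GRCr8, which matched 21215 of 45598 probes. Promoter sequences and their GRCr8 coordinates came from a RefSeq promoter table. limma 3.58.1 (R 4.3.3) fitted 4 group means over all arrays with 4 residual and 3.6 prior degrees of freedom, adjusted by Benjamini-Hochberg over 29780 probes, with a threshold of 0.05, and was tested on simulated data. An exact permutation test of 2 arrays against 2 cannot go below p = 0.333. Where a probe was below background on both arrays of a group, the fold is given as "at least": in place of that group's values stands, on each array, the larger of the probe's own signal and the weakest signal that passed as well above background.

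Named genes were fixed members of known role, and the 5 highest and 5 lowest called members without overlap between groups (2 each for comparisons without smoke lungs). Other genes are named as examples chosen after their values were seen. The members, the gene lists and the rule were chosen with earlier results of these data known. Alternatives were normexp (offset 50, with the median signal in place of the mean), quantile normalization, cyclic loess, scaling to 7 of 10 E1A spike-in probes, other filters, other fits and leaving out arrays. Scaling over probes and the settings for differences between arrays of a group were chosen after seeing the data. Replicate numbers equal the slide row. They were not used as pairs, since over all kept probes the correlations of the differences between same-numbered arrays ran from -0.144 to 0.139. Cilium probes alone are described in the results.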

Additional observations from a re-analysis of the deposited data

Results flagged for a closer look

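Rsph6a differed between the treatments: its EV minus smoke difference was below its MSC minus smoke difference by a tested amount of -1.93 log2 units (limma adjusted p = 0.0397), with levels of -2.32 and -1.78 in EV lungs and 0.04 and -0.28 in MSC lungs. That call was lost under 11 of 20 alternatives.

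Cfap68, which failed the filter and entered no comparison, was well above background on EV array 1 at a level of -3.46, against -6.03 on EV array 2, -5.68 and -6.55 in MSC lungs, -7.21 and -8.40 in smoke lungs and -6.35 and -6.50 in naive lungs. With 2 arrays in a group, no test for a single deviating array was made.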

How the results depend on the processing

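Of 831 values of the 45 named member results under alternatives, 670 kept their direction and call, 91 lost the call, 14 gained one and 56 turned direction. The turns came from background correction, normalization, spike-in scaling and leaving out an array, and the cause was not tested. After normexp, smoke against naive lungs gave 0 higher and 49 lower of 64 cilium probes (7.84% and 66% of all kept probes). EV against smoke gave 46 and 0 (61% and 7.66%), MSC against smoke 54 and 1 (70.4% and 8.58%), and EV against MSC 28 (51.5%). The turned differences were -1.19 (Dnaaf5), -1.18 (Tekt5), -0.56 (Tekt3), -1.05 (Cfap418), -0.90 (Dnai1) and -0.86 (Tekt1) for smoke against naive. For EV against smoke they were 0.75 (Tekt5), 0.65 (Cfap418), 0.15 (Tekt3), 0.82 (Dnaaf5), 0.72 (Dnai1) and 0.51 (Tekt1), and for MSC against smoke 1.79 (Tekt5), 2.15 (Dnaaf4), 1.60 (Dnai1), 1.26 (Dnai2), 1.77 (Dnaaf1) and 1.56 (Tekt1). Quantile normalization gave 12 lower in smoke lungs, 10 higher in EV lungs and 10 lower in MSC lungs (18.4%, 14.3% and 27.9% of all kept probes). With it Dnai2 was at 0.07 and Dnaaf1 at 0.22 for smoke against naive. Cyclic loess gave 9 lower in smoke lungs and 6 higher in EV lungs (20.2% and 16% of all kept probes). In MSC lungs it gave 15 higher and 12 lower (27.6% and 27.2%). With it Dnai2 was at 0.17 and Dnaaf1 at 0.31 for smoke against naive, and Dnaaf1 was at -0.08 for EV against smoke.

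E1A scaling gave 52 higher and 0 lower for smoke against naive, 0 and 44 for EV against smoke, 0 and 59 for MSC against smoke, 1 for MSC against naive and 22 for EV against MSC, with medians of all probes at 2.40, -1.98, -3.34, -0.83 and 1.26. The turned differences were 0.14 (Cfap97), 0.46 (Dnai4), 0.87 (Cfap210), 0.96 (Rsph1), 1.01 (Foxj1), 2.71 (Dnai2), 2.64 (Dnaaf1) and 1.69 (Drc1) for smoke against naive. For EV against smoke they were -0.49 (Cfap210), -0.18 (Foxj1), -0.12 (Rsph6a), -0.02 (Cfap97), -1.81 (Dnai2), -1.97 (Dnaaf1), -0.80 (Rsph1) and -1.06 (Drc1). For MSC against smoke they were -1.35 (Rsph1), -1.12 (Cfap210), -0.74 (Cfap97), -0.63 (Dnai4), -2.00 (Foxj1) and -2.71 (Drc1). Among all kept probes, the share of calls that were higher for smoke against naive, EV against smoke and MSC against smoke was 27.5%, 73% and 71.2% here, 10.6%, 88.8% and 89.1% after normexp, 49.7%, 51.8% and 47.9% after quantile normalization, 48.8%, 50.9% and 50.4% after cyclic loess, and 99.4%, 0.923% and 0.784% with E1A scaling.

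With no filter, 2 of 72 cilium probes were higher in smoke lungs (6.7% of all probes). In EV lungs against smoke 9 were higher and 1 lower (13.9% and 3.97%), and 0 differed between EV and MSC lungs (0%). The median for MSC against smoke, relative to all probes, was -0.68. With probes above background on all 8 arrays, 0 were higher in smoke lungs and 0 lower in EV lungs (13.6% and 11.3% of all such probes). Fits of 2 groups alone gave 27 higher and 7 lower for EV against smoke (35.7% and 14.6% of all kept probes) and 0 for EV against MSC (0%). A trended, robust prior gave 5 lower in MSC lungs, and the 75th percentile over probes gave 8 (17.4% and 22.8% of all kept probes). The replicate block gave 0 for EV against MSC (0% of all kept probes). It gave 3 higher and 21 lower for smoke against naive, 15 and 4 for EV against smoke and 24 and 3 for MSC against smoke. Of the 29780 kept probes it called 13311, 10923 and 17265 in these 3 comparisons, with 27.4%, 73.1% and 71.4% of those calls higher. Without both smoke arrays, EV against MSC gave 0 (0% of all kept probes).

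Leaving out 1 array moved the calls for smoke against naive between 0 and 9 higher and between 6 and 26 lower, with the smallest counts without smoke array 1 (0 and 6) and naive array 2 (0 and 7), and 9 higher without either MSC array. For EV against smoke the counts ran from 3 to 24 higher and 0 to 5 lower, for MSC against smoke from 14 to 32 higher and 1 to 16 lower, and for EV against MSC from 0 to 1. Calls over all kept probes changed as well in these fits, though not always to a like extent. Without MSC array 2 the MSC against smoke median was 0.06 for the cilium probes (0.66 with all arrays). Over all kept probes it was 0.74 (0.68 with all arrays). Whether the counts are particular to the cilium probes was not tested. The median relative to all probes ran from -0.68 to 0.87 for MSC against smoke, from -0.62 to 0.53 for MSC against naive and from -0.52 to 0.57 for EV against MSC, each end without 1 of the MSC arrays. Named differences with a turned direction ran from -0.78 to 0.14 (Dnaaf1), -0.02 to 1.61 (Dnai1) and -0.85 to 0.35 (Dnai2) for smoke against naive, from -0.71 to 0.07 (Dnai1) for EV against smoke, and from -2.59 to 1.86 (Dnaaf1), -1.20 to 0.72 (Dnai1), -1.62 to 1.48 (Dnai2) and -1.35 to 0.79 (Tekt1) for MSC against smoke.

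The median difference between the MSC arrays was -1.31 after quantile normalization, -1.25 after cyclic loess, -1.19 with the percentile over probes and -0.40 after normexp, and that between the naive arrays was -0.68, -0.79, -0.61 and -0.66. After normexp 10.9% of cilium probes, against 1.94% of all, were lower on MSC array 1 by more than 1.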
